A study of Mus musculus with 12 samples.

Results

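The 8 genes described here encode proteins of the kidney podocyte and its slit diaphragm: Nphs1, Cd2ap, Magi2, Podxl, Ptpro, Clic5, Synpo and Wt1. They were chosen by name, as the rows of a kidney expression table whose mouse Ensembl identifiers carry these symbols, and all 8 were found among 21899 genes. With their Ensembl identifiers and chromosomes they are Nphs1 (ENSMUSG00000006649, chromosome 7), Cd2ap (ENSMUSG00000061665, chromosome 17), Magi2 (ENSMUSG00000040003, chromosome 5), Podxl (ENSMUSG00000025608, chromosome 6), Ptpro (ENSMUSG00000030223, chromosome 6), Clic5 (ENSMUSG00000023959, chromosome 17), Synpo (ENSMUSG00000043079, chromosome 18) and Wt1 (ENSMUSG00000016458, chromosome 2). Their levels were measured by poly(A) RNA sequencing of whole mouse kidney in 12 libraries, 3 in each of 4 groups. The db/m-veh group is the lean control given vehicle, and the db/db-veh group is the diabetic kidney disease model given vehicle. The db/m-GABP-OE group is lean with overexpression of the transcription factor GABP, and the db/db-GABP-KD group is diabetic with GABP knockdown. The db/db line lacks a working leptin receptor, and db/m animals are its heterozygous controls. The sources used here give no age or sex, and not how GABP was raised or lowered. Per the labels, kidneys of 6 mice were used per group and 3 were mixed for each extraction. Which mice went into which library is not given, so libraries of a group may share animals, and all p-values measure only the spread between libraries.

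Podocytes wrap the capillaries of the glomerulus with interlocking foot processes, and the slit diaphragm is the protein sheet that bridges the gaps between them. Nephrin molecules meet across the slit, adaptors tie them to the actin cytoskeleton, and a charged surface coat keeps neighbouring processes apart. Loss of podocytes or of this junction lets protein into the urine and is a hallmark of diabetic kidney disease. Podocytes are a small share of the cells in a whole kidney, so in these bulk libraries fewer podocytes and less RNA per podocyte cannot be told apart.

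None of the 8 genes passed the test in any of the 4 comparisons made. The test was limma on log2(FPKM + 0.5) over 12897 genes, with a Benjamini-Hochberg adjusted p under 0.05. FPKM is a fragment count divided by exon length and by the library's total, and is given as deposited. It moves for all genes when a few take many fragments, and mitochondrial transcripts took 48.0% to 86.0% of the fragments. Each of the 4 comparisons tested is therefore also given after median of ratios scaling, which equalises the typical gene between libraries. Levels of single genes are as deposited where no scaling is named. Mitochondrial transcripts averaged 71.8% of fragments in lean vehicle kidney, 78.8% in diabetic vehicle kidney, 60.9% with overexpression and 65.9% with the knockdown label. Total fragments ranged from 6778021 to 9697470 per library. The library db/db-GABP-KD 1 stood apart, with the lowest mitochondrial share, and db/db-veh 2 had the highest. Gabpa, the DNA-binding subunit of GABP, averaged 2.22 FPKM in lean vehicle kidney, 2.00 in diabetic vehicle kidney, 3.50 with overexpression and 4.23 with the knockdown label. After scaling these means were 2.34, 2.85, 2.71 and 3.54, and db/m-veh 2 (2.83) lay above every overexpression library (2.58 to 2.80). The libraries labelled GABP-KD therefore did not have less Gabpa RNA than the diabetic vehicle libraries, and the higher Gabpa level of the overexpression libraries as deposited overlapped lean vehicle after scaling. Directions given for either group refer to libraries with that label.

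Promoter windows show the DNA around RefSeq starts of the members, in which a GABP site could lie. RefSeq windows (GRCm38.p6, 250 bases before to 50 bases after the start) were examined for 5 members, Nphs1, Cd2ap, Magi2, Ptpro and Clic5. Windows of Podxl, Synpo and Wt1 were not examined and are not in the counts of member windows. Windows of 3 members are printed to show how they differ in the short ETS half-site GGAAG, which is in capitals on either strand: Nphs1 held the most, Cd2ap held it on both strands and Clic5 held none. The windows are given 5′ to 3′ on the gene's strand: Nphs1 at chr7:30459808-30460107 (plus), Cd2ap at chr17:42876375-42876674 (minus) and Clic5 at chr17:44188322-44188621 (plus).
Nphs1: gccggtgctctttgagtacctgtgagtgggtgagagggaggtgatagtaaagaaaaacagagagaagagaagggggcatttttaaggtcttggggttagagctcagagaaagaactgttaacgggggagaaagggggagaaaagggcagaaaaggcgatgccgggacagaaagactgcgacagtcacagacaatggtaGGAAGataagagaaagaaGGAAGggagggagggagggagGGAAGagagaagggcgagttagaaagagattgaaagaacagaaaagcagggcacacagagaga
Cd2ap: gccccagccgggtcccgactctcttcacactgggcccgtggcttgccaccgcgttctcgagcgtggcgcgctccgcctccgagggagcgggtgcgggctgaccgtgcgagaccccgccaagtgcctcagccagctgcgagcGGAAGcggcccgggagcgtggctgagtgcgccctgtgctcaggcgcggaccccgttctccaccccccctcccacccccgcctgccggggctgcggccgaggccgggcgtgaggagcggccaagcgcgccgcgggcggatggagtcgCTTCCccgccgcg
Clic5: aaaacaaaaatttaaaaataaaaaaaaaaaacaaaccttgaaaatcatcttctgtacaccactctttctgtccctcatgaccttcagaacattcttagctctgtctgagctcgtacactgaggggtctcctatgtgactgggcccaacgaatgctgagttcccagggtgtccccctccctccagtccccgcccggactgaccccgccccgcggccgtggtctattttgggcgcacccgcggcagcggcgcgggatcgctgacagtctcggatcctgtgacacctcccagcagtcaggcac
The Nphs1 sites, 3 in number, lie at -52, -34 and -13 from the RefSeq start, and those of Cd2ap at -109 and, on the other strand, 38. In the GENCODE M21 annotation the whole Nphs1 window and most of the Cd2ap window lie inside the gene, not in front of it. So does a Magi2 window. Magi2 has 2 windows, so the 5 members gave 6 windows, and 5 of these 6 held the half-site, against 71.4% of 32851 windows of all genes. The longer GABP core CCGGAAG, searched on both strands like the others and containing the half-site, was in none of the 6 windows and in 8.86% of all windows. The GLI motif GACCACCCA was in none, against 0.253%, and the EGR and WT1 type motif GCGGGGGCG was in none, against 2.91%. These matches describe letters in the windows only.

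The members differed widely in level. Per kilobase of exon, Podxl was the most abundant at a mean of 7.52 FPKM over the 12 libraries, above 89.6% of genes in the table. Cd2ap followed at 4.01 FPKM, Synpo at 3.39, Clic5 at 2.96, Nphs1 at 2.17 and Wt1 at 1.11. The order below Podxl differed between groups: Clic5 was second in db/m-veh at 3.80 FPKM, and without db/db-GABP-KD 1 Cd2ap averaged 3.18 over the other 11 libraries, below Synpo at 3.36. Ptpro at 0.566 FPKM and Magi2 at 0.296 FPKM were the lowest. Magi2 rested on 13 to 50 fragments per library and Ptpro on 8 to 79, so counting error alone is wide for both. Cd2ap rested on 246 to 1759 fragments.

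**Figure D1:**
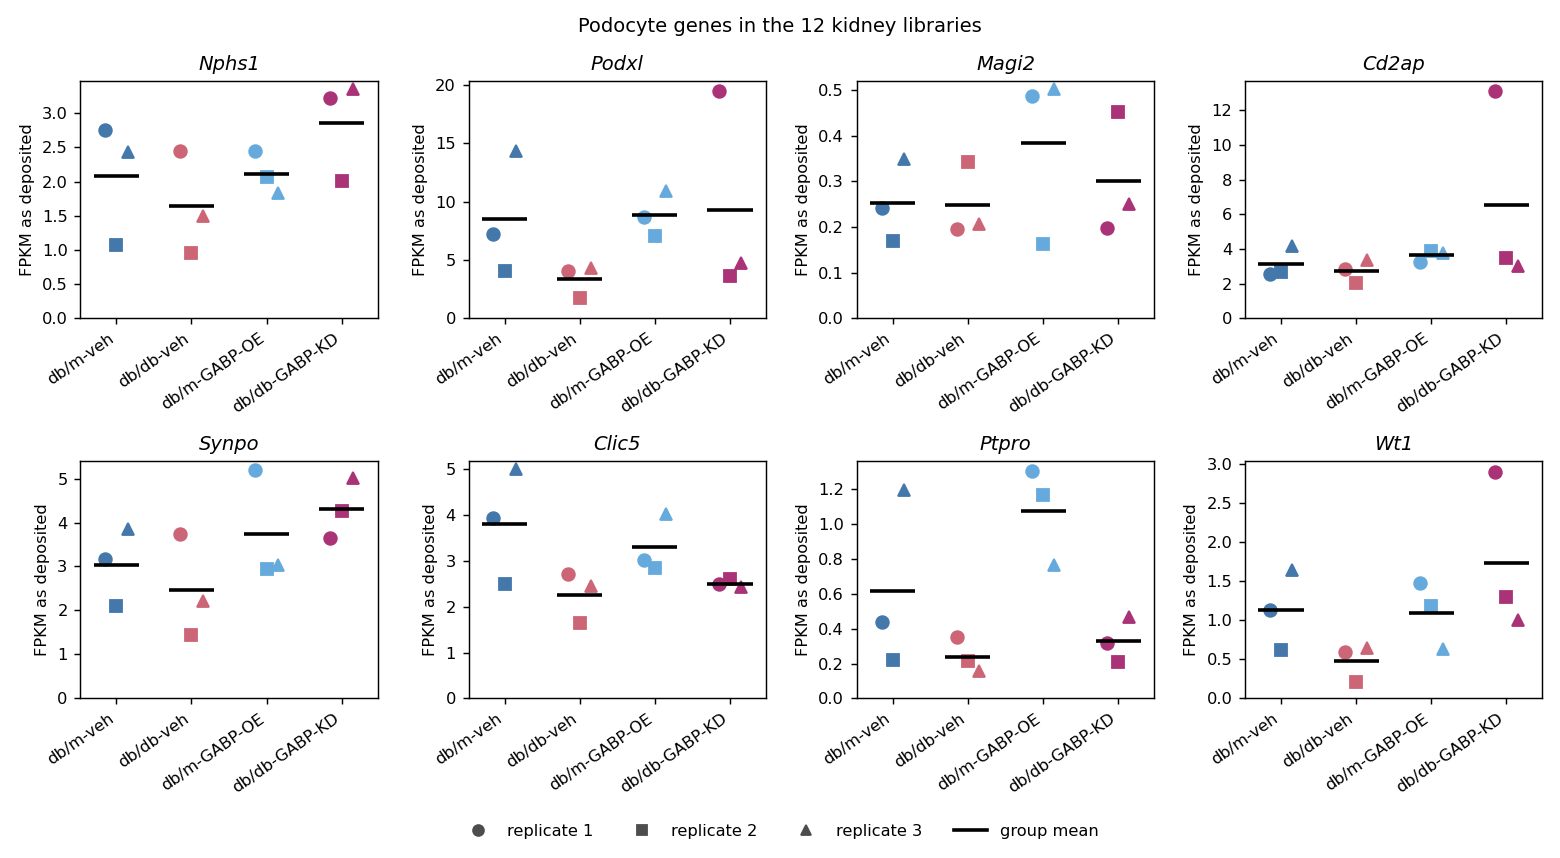
FPKM as deposited (y axis, each panel from 0) of the 8 genes in the 12 libraries, by group (x axis); symbols are libraries and black lines are means of 3. Podxl and Cd2ap in db/db-GABP-KD 1 lie far above the other 2 libraries of that group, and for Wt1 all 3 db/db-GABP-KD libraries lie above all 3 db/db-veh libraries.

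Nphs1 encodes nephrin, the adhesion protein that spans the slit. Its level was 2.76, 1.06 and 2.43 FPKM in db/m-veh 1 to 3 and 2.45, 0.961 and 1.49 FPKM in db/db-veh 1 to 3. The groups overlapped, with a low library in each. It was 2.44, 2.07 and 1.83 FPKM in db/m-GABP-OE and 3.22, 2.01 and 3.35 FPKM in db/db-GABP-KD. Both of the highest values came from db/db-GABP-KD, yet its second library lay below the highest of db/db-veh. The group means in rising order were 1.64 ± 0.755 for diabetic vehicle, 2.08 ± 0.898 for lean vehicle, 2.11 ± 0.309 for overexpression and 2.86 ± 0.741 FPKM for the knockdown label (SD, n = 3 each). No neighbours in that order were separate. After median of ratios scaling the order changed, at 1.64 for overexpression, 2.12 for diabetic vehicle, 2.12 for lean vehicle and 2.61 for the knockdown label. Over all 8 members, the neighbours in the order of group means that did not overlap were Clic5 in db/db-GABP-KD below db/m-GABP-OE as deposited and Podxl in db/db-veh below db/m-GABP-OE after scaling. That is 1 of 24 neighbour pairs (4.17%) on each scale, beside 10.5% of those of all genes tested as deposited and 6.85% after scaling. In the GENCODE M21 annotation, 597 exon bases of Nphs1 (9.02%) are shared with its antisense gene Nphs1os, and the strand setting of the counting is not given, so reads of the pair cannot be told apart.

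Cd2ap encodes an adaptor that links nephrin to actin and is also made by other kidney cells. Its level was 2.56, 2.65 and 4.18 FPKM in db/m-veh and 2.83, 2.01 and 3.36 FPKM in db/db-veh, with overlap. In db/m-GABP-OE it was 3.25, 3.88 and 3.74 FPKM, the tightest of the 4 groups. In db/db-GABP-KD it was 13.1, 3.47 and 3.03 FPKM, so the first library was 4.04 times the mean of the other 2. After median of ratios scaling that library was still 2.12 times the other 2, at 7.69 against 3.93 and 3.32. The db/db-GABP-KD difference for Cd2ap from db/db-veh was 0.86 (log2; limma adjusted p = 0.35) with all libraries and 0.23 (adjusted p = 0.86) without db/db-GABP-KD 1.

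Magi2 encodes a scaffold that binds nephrin at the membrane. Its level was 0.241, 0.168 and 0.349 FPKM in db/m-veh, and 0.195, 0.343 and 0.207 FPKM in db/db-veh. The 2 groups covered nearly the same range. It was 0.488, 0.163 and 0.503 FPKM in db/m-GABP-OE and 0.198, 0.452 and 0.251 FPKM in db/db-GABP-KD. The lowest and the highest of the 12 values both came from db/m-GABP-OE. In the same annotation, 203 exon bases of Magi2 are shared with Gm29254.

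Podxl encodes podocalyxin, the charged sialoprotein of the podocyte surface, which endothelial cells also make. Its level was 7.23, 4.04 and 14.3 FPKM in db/m-veh and 4.08, 1.77 and 4.34 FPKM in db/db-veh. The db/db-veh 2 value lay below all lean vehicle values, and db/db-veh 1 and 3 lay just above the lowest of them. It was 8.68, 7.06 and 10.9 FPKM in db/m-GABP-OE and 19.5, 3.65 and 4.72 FPKM in db/db-GABP-KD. The first db/db-GABP-KD library was 4.65 times the mean of the other 2, or 2.45 times after median of ratios scaling. Means were 8.53 ± 5.26 for lean vehicle, 3.40 ± 1.41 for diabetic vehicle, 8.87 ± 1.92 for overexpression and 9.28 ± 8.83 FPKM for the knockdown label (SD, n = 3 each). After scaling the Podxl means were 8.53, 4.41, 6.85 and 6.90 in the same order of groups, with lean vehicle the highest. The Podxl difference of db/db-GABP-KD from db/db-veh was 1.03 (log2; limma adjusted p = 0.36) with all libraries and 0.33 (adjusted p = 0.86) without db/db-GABP-KD 1.

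Ptpro encodes a receptor tyrosine phosphatase of the foot process surface. Its level was 0.439, 0.218 and 1.19 FPKM in db/m-veh and 0.351, 0.212 and 0.155 FPKM in db/db-veh. One lean library, db/m-veh 3, was 3.63 times the mean of the other 2. It was 1.30, 1.16 and 0.762 FPKM in db/m-GABP-OE and 0.317, 0.208 and 0.465 FPKM in db/db-GABP-KD. The db/m-GABP-OE values exceeded 2 of the 3 lean vehicle libraries and overlapped the third. Without db/m-veh 3 the Ptpro difference of db/m-GABP-OE from db/m-veh went from 0.58 (log2; limma adjusted p = 0.38) to 0.92 (adjusted p = 0.22).

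Clic5 encodes a chloride intracellular channel family protein that sits with ezrin and podocalyxin at the foot process membrane. Its level was 3.92, 2.49 and 4.99 FPKM in db/m-veh and 2.70, 1.65 and 2.44 FPKM in db/db-veh. Only db/db-veh 1 reached the lean range. It was 3.02, 2.83 and 4.02 FPKM in db/m-GABP-OE and 2.49, 2.59 and 2.43 FPKM in db/db-GABP-KD. As deposited the db/db-GABP-KD values were close together, at 2.50 ± 0.0831 FPKM (SD, n = 3), a coefficient of variation of 3.32%. After median of ratios scaling they were 1.46, 2.93 and 2.66, all below the db/db-veh values of 2.93, 3.13 and 3.04, and the highest of the former and the lowest of the latter differed only beyond the second decimal.

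Synpo encodes synaptopodin, an actin-binding protein of foot processes. Its level was 3.17, 2.09 and 3.85 FPKM in db/m-veh and 3.74, 1.44 and 2.23 FPKM in db/db-veh, with wide overlap. It was 5.20, 2.95 and 3.03 FPKM in db/m-GABP-OE and 3.65, 4.27 and 5.01 FPKM in db/db-GABP-KD. The db/db-GABP-KD libraries exceeded db/db-veh 2 and 3, and the lowest of them lay below db/db-veh 1.

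Wt1 encodes the zinc finger transcription factor that maintains podocyte identity. Its level was 1.13, 0.616 and 1.64 FPKM in db/m-veh and 0.595, 0.209 and 0.651 FPKM in db/db-veh. The db/db-veh 1 and 2 values lay below all lean vehicle values, and db/db-veh 3 lay just inside their range. It was 1.48, 1.18 and 0.639 FPKM in db/m-GABP-OE and 2.90, 1.30 and 1.01 FPKM in db/db-GABP-KD. The lowest db/db-GABP-KD library was above the highest db/db-veh library, and Wt1 was the only member with such a separation as deposited. After median of ratios scaling the db/db-GABP-KD values were 1.70, 1.47 and 1.11 and the db/db-veh values were 0.647, 0.398 and 0.813, again without overlap. These db/db-veh levels rested on 25, 10 and 31 fragments.

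In db/db-veh against db/m-veh, which asks how the diabetic kidney differs from the lean one, all 8 members had lower means as deposited, and none passed the test. Their median log2 fold change was -0.40, beside -0.24 over all genes tested. Of all genes, 0.0930% passed. After median of ratios scaling the members' median was -0.14 beside 0.01 over all genes, and 0 of 8 passed, against 0.171% of all genes. On that scale Nphs1, Synpo, Cd2ap and Magi2 changed sign, at 0.03, 0.02, 0.17 and 0.17. Podxl had the largest difference, -1.12 (SE 0.55; limma adjusted p = 0.45) as deposited and -0.80 (SE 0.39; adjusted p = 0.44) after scaling. Wt1 was next at -0.71 (SE 0.36; limma adjusted p = 0.47), or -0.54 after scaling. No member separated all 6 libraries on either scale, whereas 15.8% of all genes did as deposited and 17.3% did after scaling. Without db/db-GABP-KD 1, which is in neither group but shares in the estimate of spread, the adjusted p of Podxl was 0.17, and the genes called went from 12 to 48. Without db/db-veh 2, 3 genes were called, and the Podxl difference was -0.77. Without db/m-veh 3 it was -0.68 (limma adjusted p = 0.98), and 4 genes were called. The sums of the mesangial and endothelial marker lists were lower in db/db-veh, with 7 of 8 mesangial and 12 of 12 endothelial markers above 0 in every library of both groups. The summed FPKM of 8 mesangial markers was 121 to 216 in db/m-veh and 39.9 to 88.7 in db/db-veh, and that of 12 endothelial markers was 130 to 172 and 75.1 to 123. After scaling, the mesangial sum was 124 to 200 and 75.7 to 111, and the endothelial sum 159 to 169 and 134 to 152. How often sums of other gene lists separate these groups was not measured, while 15.8% and 17.3% of single genes did. Of the mean endothelial sum of 156 FPKM in db/m-veh, Plvap held 53.7 and Eng 38.4. Ren1 and Acta2 made up most of the mesangial sum, and the other 6 markers summed to 27.6 to 30.4 FPKM and 17.5 to 26.5 as deposited and overlapped after scaling (28.2 to 33.6 and 21.8 to 38.9). The sum of 7 parietal epithelial markers overlapped on both scales, at 32.4 to 38.3 FPKM and 18.7 to 37.0 as deposited, and with means of 36.8 and 38.3 after scaling. So did the summed FPKM of the 8 members, at 13.3 to 33.0 and 8.60 to 16.9 as deposited, and 16.2 to 30.5 and 16.3 to 18.6 after scaling. Tubule list medians also lay below the all-gene median. For 12 proximal tubule and 12 distal nephron markers they were -0.42 and -0.56 beside -0.24 as deposited. After scaling they were -0.04 and -0.28 beside 0.01. Their part in the podocyte values was not tested.

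**Figure D2:**
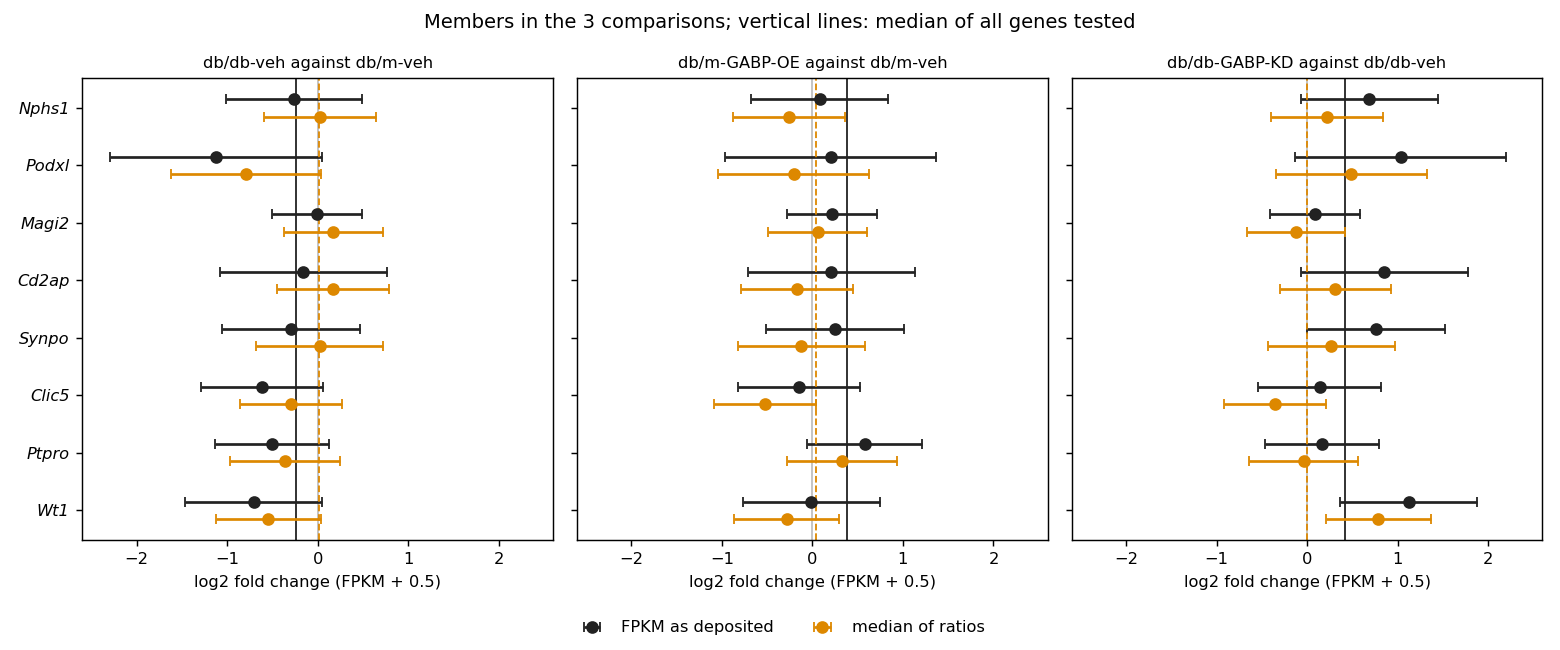
Log2 fold changes on the log2(FPKM + 0.5) scale with 95% intervals (x axis) of the 8 genes (y axis) in 3 comparisons, as deposited (black) and after median of ratios scaling (orange); vertical lines are the medians of all genes tested on each scale. In the knockdown comparison the Wt1 interval lies above 0 on both scales, from 0.37 to 1.88 as deposited. The intervals are not adjusted for the number of genes tested. The limma adjusted p of Wt1 there was 0.34 as deposited and 0.55 after scaling.

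In the lean mice, comparing overexpression with vehicle, which asks what GABP overexpression does in lean kidney, 0 of 8 members passed as deposited, where 1.90% of all genes did. This comparison shares the db/m-veh libraries with the diabetic one. The median difference of the members was 0.20 beside 0.38 over all genes, and 1 of 8, Ptpro, lay above the all-gene median. After scaling the members' median was -0.19 beside 0.04, with 0 of 8 passing against 0.209% of all genes. Nphs1, Podxl, Synpo and Cd2ap had positive differences as deposited (0.08, 0.20, 0.25 and 0.21) and negative ones after scaling (-0.26, -0.21, -0.12 and -0.17). Ptpro, at 0.58 (SE 0.30; limma adjusted p = 0.38) and 0.33 after scaling (adjusted p = 1.00), had the largest positive difference on both. Clic5 had the largest negative difference on both, at -0.15 (SE 0.32; limma adjusted p = 0.80) and -0.52 (SE 0.26; adjusted p = 0.72). No member separated all 6 libraries, against 31.3% of genes as deposited and 14.4% after scaling.

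In the diabetic mice, comparing the knockdown label with vehicle, which asks what GABP knockdown does in diabetic kidney, all 8 members had positive differences as deposited, and none passed. The percentage of all genes passing was 0, with 1839 genes at an unadjusted limma p under 0.05, and voom on recovered fragments also called 0. The members' median was 0.72 beside 0.42 over all genes. After scaling it was 0.24 beside 0.00, and 0 of 8 passed against 0.0388% of all genes. Magi2, Ptpro and Clic5 then had negative values (-0.12, -0.04 and -0.35). Wt1 had the largest difference, 1.12 (SE 0.36; unadjusted p = 0.0062, limma adjusted p = 0.34) as deposited and 0.79 (SE 0.27; adjusted p = 0.55) after scaling. Its mean was 1.74 ± 1.02 FPKM against 0.485 ± 0.241 (SD, n = 3 each), a ratio of 3.58, or 2.30 after scaling. The exact two-sided permutation test of these 3 against 3 libraries gave p = 0.1, the smallest it can give. Without db/db-GABP-KD 1 the Wt1 difference was 0.77 (adjusted p = 0.47), and without db/db-veh 2 it was 0.90 (adjusted p = 0.73). Wt1 was the 1 of 8 members without overlap as deposited, where 18.1% of all genes had none. After scaling 2 of 8 had none, Wt1 (higher) and Clic5 (lower, ratio 0.773), where 10.3% of all genes had none. Without db/db-GABP-KD 1, 4 genes in the table passed in this comparison, and no member was among them.

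The difference between the overexpression effect and the knockdown-label effect, the former minus the latter, was tested as 1 term. Again 0 of 8 members passed, as deposited against 0.132% of all genes and after scaling against 0.0775%. The members' median was -0.56 beside -0.05 over all genes, and -0.43 beside 0.05 after scaling. Wt1 had the largest value, -1.14 (SE 0.51; limma adjusted p = 0.86), or -1.07 (SE 0.38; adjusted p = 0.57) after scaling. Magi2 and Ptpro had positive values of 0.13 and 0.41.

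Ratios of members within a library do not depend on how libraries are scaled. All 28 pairs of members were compared, after shares of the summed signal had been seen. In db/db-veh against db/m-veh, 7 of 28 ratios (25.0%) separated all 6 libraries, beside 17.4% of the ratios among 11864 genes. Pairs share genes, and these counts are descriptions. Podxl to Cd2ap was 1.21 ± 0.291 in db/db-veh and 2.59 ± 0.973 in db/m-veh (SD, n = 3 each). Wt1 to Cd2ap was 0.169 ± 0.0572 and 0.355 ± 0.110 (SD, n = 3 each). Podxl and Wt1 were low relative to Cd2ap and to Magi2 in every diabetic vehicle library. Synpo was high relative to Wt1 and Clic5, and Magi2 relative to Clic5. Magi2 rested on 13 to 50 fragments per library and Wt1 in db/db-veh on 10 to 31, so counting error is wide in their ratios. For overexpression in lean mice, 1 of 28 (3.57%) separated, beside 15.3%. That ratio was Wt1 to Ptpro, at 0.998 ± 0.151 against 2.26 ± 0.774 (SD, n = 3 each). For the knockdown label in diabetic mice, 3 of 28 (10.7%) separated, beside 10.8%. They were Synpo to Clic5 (1.73 ± 0.306 against 1.06 ± 0.285), Wt1 to Cd2ap (0.309 ± 0.0789 against 0.169 ± 0.0572) and Wt1 to Clic5 (0.695 ± 0.412 against 0.205 ± 0.0715; SD, n = 3 each).

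**Figure D3:**
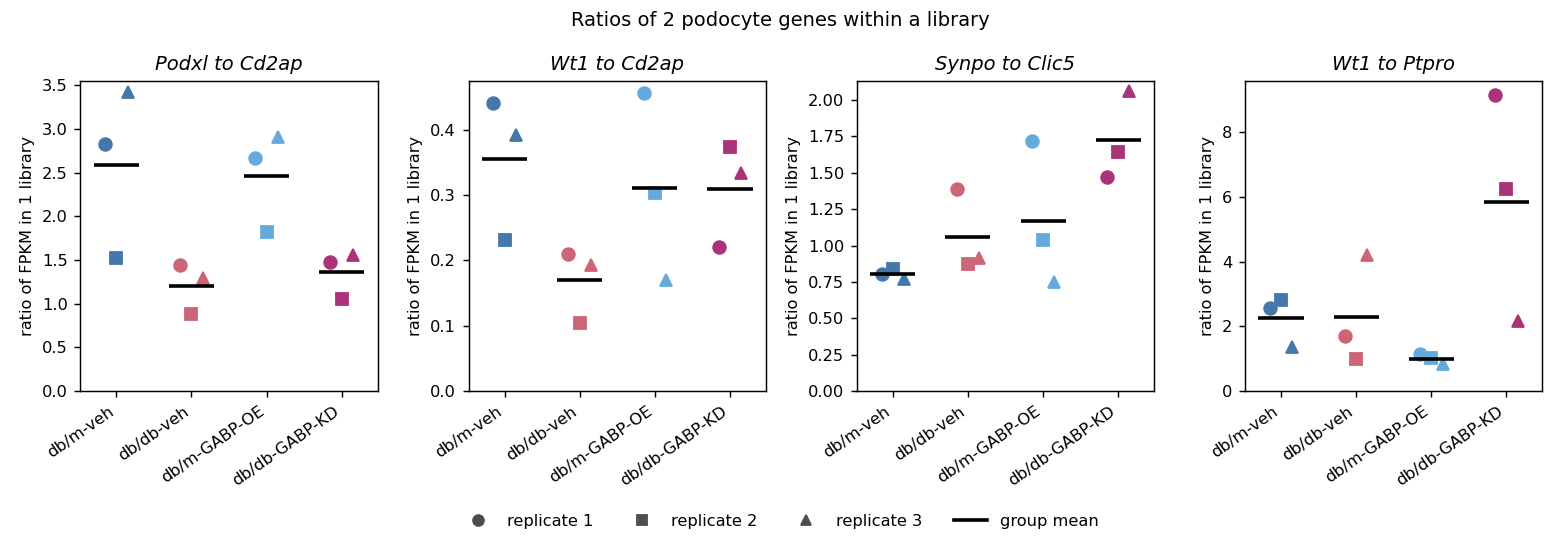
Ratio of the FPKM of 2 genes in the same library (y axis, from 0) by group (x axis); symbols are libraries and black lines are means of 3. Podxl to Cd2ap and Wt1 to Cd2ap are lower in every db/db-veh library than in any db/m-veh library, and Synpo to Clic5 is higher in every db/db-GABP-KD library than in any db/db-veh library.

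The make-up of the summed signal of the 8 genes shows the same values as shares. Podxl made up 33.7%, 30.3% and 43.4% of the sum in db/m-veh and 24.1%, 20.6% and 29.2% in db/db-veh, without overlap. Wt1 made up 3.51%, 2.43% and 4.38% in db/db-veh and 6.40%, 7.23% and 4.98% in db/db-GABP-KD, also without overlap. Wt1 in db/db-veh was also below its share of 4.62% to 5.27% in db/m-veh. Clic5 made up 15.9%, 19.2% and 16.4% in db/db-veh and between 5.48% and 14.4% in db/db-GABP-KD. In all, 2 of 8 shares separated the 6 libraries in the diabetic comparison (Podxl and Wt1), 0 of 8 for overexpression and 2 of 8 for the knockdown label (Wt1 and Clic5). A share depends on the other members, and shares within other sets of 8 genes were not computed. How common such separation is was therefore not measured, and these counts are descriptions. Ratios of 2 genes, which also do not depend on scaling, separated for 17.4%, 15.3% and 10.8% of all pairs in the same 3 comparisons. The library db/db-GABP-KD 1 stood apart here too, with 42.9% Podxl and 28.9% Cd2ap against 20.3% and 19.4% in db/db-GABP-KD 2. The sum itself was 22.6 ± 9.86 FPKM for lean vehicle, 13.5 ± 4.34 for diabetic vehicle, 24.2 ± 2.51 for overexpression and 27.9 ± 15.2 for the knockdown label (SD, n = 3 each). After scaling the sums were 22.9, 17.8, 18.7 and 23.0, closer to each other.

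**Figure D4:**
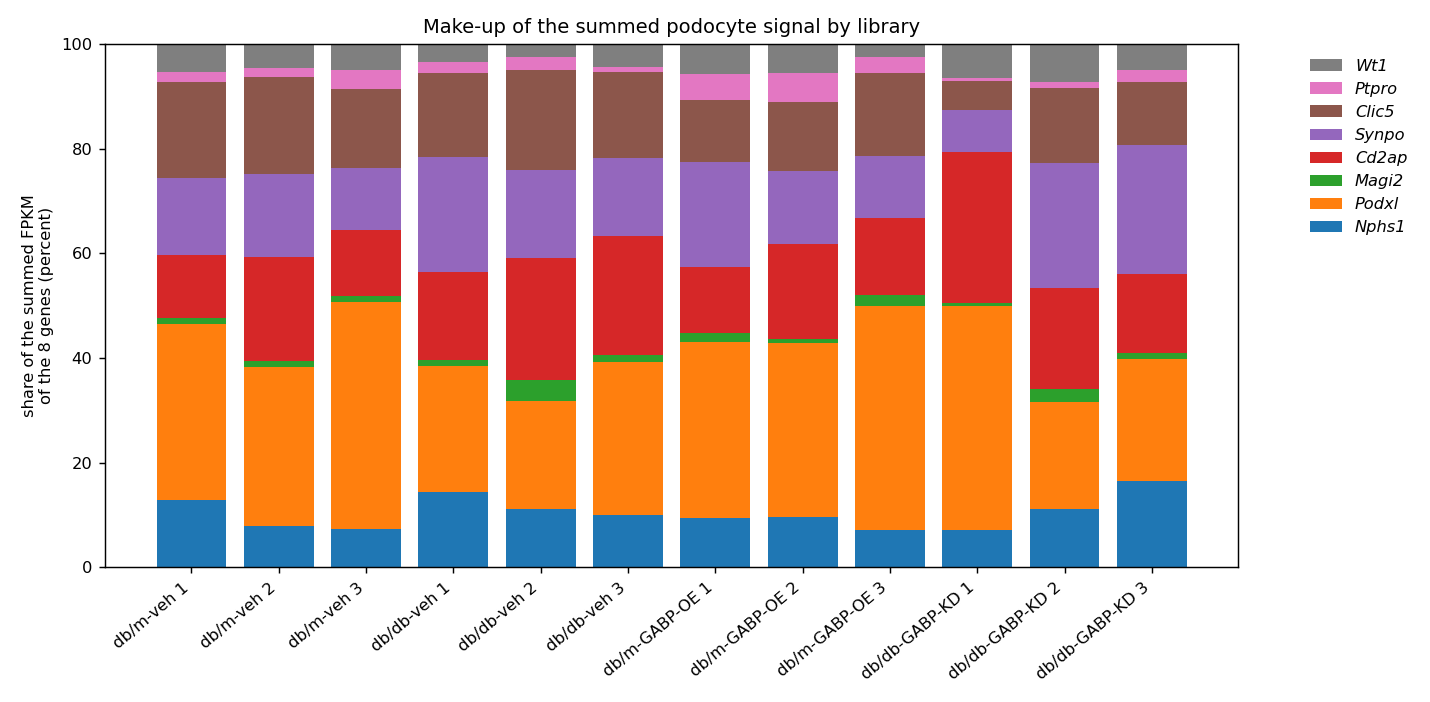
Share of each gene in the summed FPKM of the 8 genes (y axis, percent) in each of the 12 libraries (x axis). Podxl takes 20.6% to 29.2% in db/db-veh and 30.3% to 43.4% in db/m-veh, and Podxl with Cd2ap fill most of db/db-GABP-KD 1.

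The members did not vary as 1 block over the libraries. Over the 12 libraries, on the median of ratios scale and with group differences included, Nphs1 and Synpo had the closest pattern (Pearson r = 0.78, Spearman rho = 0.76, and r = 0.68 without the 2 libraries farthest from the median of Synpo). Ptpro and Cd2ap had the most opposed (r = -0.52, rho = -0.63, and r = -0.64 without the 2 libraries farthest from the median of Ptpro). Without db/db-GABP-KD 1, the library highest in Cd2ap, their r was -0.41. Ptpro rested on only 8 to 79 fragments per library. These are descriptions with no test, over libraries that share groups. Against the mean of the other members, Wt1 had the highest r (0.57) and Cd2ap the lowest (-0.19); Magi2 was left out for its low level. The 10 genes most like the members' mean pattern, of 9111 with a mean of at least 1 FPKM, were Btd, St3gal1, Sel1l3, Ackr3, St3gal3, Dpp7, Pcx, Ildr2, Gpaa1 and Gprc5c, with r from 0.81 down to 0.74. They are the extreme of 9111 correlations over 12 libraries. None of them is in the podocyte or other kidney cell lists used here. Those lists hold few of the 9111 genes, so their absence from a top 10 does not show whether other podocyte genes follow the members.

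Other genes of the same structures were read from lists, of which at most 2 genes are named where none passed. Of 13 other slit diaphragm genes, 10 were measured well enough to test and 0 passed in any comparison on either scale. Pard6b, a polarity complex subunit, averaged 4.52 ± 1.36 FPKM for lean vehicle, 3.38 ± 1.29 for diabetic vehicle, 5.18 ± 1.82 for overexpression and 8.35 ± 7.44 for the knockdown label (SD, n = 3 each).

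Of 8 podocyte transcription factors none passed; Tcf21 averaged 9.88 ± 3.54 FPKM in db/m-veh and 29.7 ± 3.22 in db/m-GABP-OE (SD, n = 3 each; limma adjusted p = 0.23, or 0.92 after scaling), and Nr3c1, the glucocorticoid receptor, 2.83 and 4.95. Of 11 actin regulators tested none passed, Ezr (ezrin) and Arhgdia being the most abundant at 60.6 and 44.6 FPKM. Of 10 basement membrane genes none passed, and all 10 lay above the all-gene median in db/db-veh against db/m-veh, with a list median of 0.20 beside -0.24 as deposited and 0.55 beside 0.01 after scaling. Among them Nid1 (nidogen) averaged 14.0 ± 4.59 FPKM in db/m-veh and 21.1 ± 9.07 in db/db-veh (SD, n = 3 each). Lama5, a laminin chain, averaged 11.2 ± 3.40 and 18.0 ± 12.1 (SD, n = 3 each). The basement membrane list median thus lay on the other side of the all-gene median from that of the 8 members. None of 9 matrix adhesion genes tested passed, Itgb1 and Tln1 being the most abundant at 48.4 and 18.8 FPKM, and Ilk is listed at 0 in all 12 libraries. None of 16 other podocyte-enriched genes passed, Vegfa and Htra1 being the most abundant. Vegfa, an endothelial growth factor, averaged 24.5 FPKM. RNA of whole kidney does not show which cells made the transcripts of any of these lists.

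Markers of other kidney cells give the setting of these values. None of 7 mesangial or 12 endothelial markers tested passed, nor any of 12 proximal tubule markers, where Slc34a1 averaged 323 FPKM. Of 7 parietal epithelial markers, Vcam1 and Ncam1 were higher with GABP overexpression as deposited, by 1.80 and 1.72 (log2, limma adjusted p = 0.039 for both). The median over all genes there was 0.38. Neither passed after scaling (limma adjusted p = 0.44 and 0.25). Vcam1 averaged 1.24 ± 0.547 FPKM in db/m-veh and 5.38 ± 0.937 in db/m-GABP-OE, and Ncam1 0.455 ± 0.350 and 3.02 ± 2.48 (SD, n = 3 each). Of 12 distal nephron markers, Slc12a1, the salt transporter of the thick ascending limb, was lower with GABP knockdown after scaling (-2.29; limma adjusted p = 0.023) and did not pass as deposited (-1.69; adjusted p = 0.34). It also passed in the difference of effects after scaling (2.83; limma adjusted p = 0.039) and not as deposited (adjusted p = 0.19). Their part in the podocyte values was not tested.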

How the data were processed

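Poly(A) RNA of whole mouse kidney was sequenced in 12 paired-end Illumina libraries, per the labels' protocols. The authors deposited FPKM, 1 value per gene and library. The submitters' processing notes name HTSeq and the build GRCm39. Not given in the sources used here: aligner, annotation and strand setting. Identifiers of 21795 of 21899 genes matched a symbol. Whole fragments were recovered with GENCODE M21 (GRCm38) exon lengths for 98.3% of genes (tolerance 0.05 of a fragment). Clic5 came out whole with a length of 9669 bases, not the 8782 of M21. Gene coordinates are not given because the builds differ. Counting intervals and fragments ignore PCR duplicates. A chi-square test of fragments found every pair of libraries within a group distinct (7.32 or more per degree of freedom), so none was counted as a copy.

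A gene entered the test where 3 or more libraries had FPKM of 0.3 or more. The test was limma 3.58.1 (R 4.3.3) with a variance trend, on log2(FPKM + 0.5), fitting group means to all 12 libraries together without a block; the pseudocount understates changes of low genes. The fit was tested on simulated data. Median of ratios factors came from 5884 genes. The 8 genes and all lists were chosen with earlier results of these data known. From each list the called genes are named (up to 4), otherwise the 2 most abundant. One gene that this rule names is not reported here. Alternatives were pseudocounts of 0.1 and 1, no filter, a filter of FPKM 1, an equal FPKM sum, a nuclear sum, quantile normalization, the replicate block, fits of 2 groups, voom and each library left out. Each library was also left out after median of ratios scaling. Exact tests used scipy 1.17.1 under Python 3.11.15; pandas 2.3.3 and numpy 2.4.6 handled tables.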

Additional observations from a re-analysis of the deposited data

How the results depend on the processing

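No member passed under any of the 36 alternatives (143 counts, all 0). Over 756 single log2 differences of members, the adjusted limma p ran from 0.17 to 1 and 58 changed sign, none of them called on either side. These 756 do not include libraries left out after median of ratios scaling. With median of ratios, and with the replicate block added to it, the values were 0.027 (Nphs1), 0.020 (Synpo), 0.17 (Cd2ap) and 0.17 (Magi2) in db/db-veh against db/m-veh. They were -0.26 (Nphs1), -0.21 (Podxl), -0.12 (Synpo) and -0.17 (Cd2ap) with GABP-OE, and -0.12 (Magi2), -0.039 (Ptpro) and -0.35 (Clic5) with GABP-KD. With the nuclear sum they were 0.31 (Nphs1), 0.31 (Synpo), 0.46 (Cd2ap) and 0.32 (Magi2) in the diabetic comparison, -0.35 (Nphs1), -0.33 (Podxl), -0.23 (Synpo) and -0.29 (Cd2ap) with GABP-OE, and -0.18 (Magi2), -0.10 (Ptpro) and -0.46 (Clic5) with GABP-KD. With quantile normalization they were 0.12 (Cd2ap) and 0.17 (Magi2), then -0.35 (Nphs1), -0.21 (Podxl), -0.17 (Synpo), -0.22 (Cd2ap) and -0.11 (Magi2), then -0.078 (Magi2) and -0.31 (Clic5), and -0.032 (Magi2) in the difference of effects. An equal FPKM sum gave 0.046 for Wt1 with GABP-OE. The cause was not tested.

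Leaving out 1 library, as deposited, changed a sign in 14 of 384 values. In the diabetic comparison Cd2ap ranged from -0.30 to 0.036 (positive when db/m-veh 3 was left out, or else db/db-veh 2) and Magi2 from -0.10 to 0.083 (positive when db/m-veh 3 was left out, likewise for replicates 1 and 3 of db/db-veh). With GABP-OE, Nphs1 ranged from -0.25 to 0.28 (negative without db/m-veh 2 or db/m-GABP-OE 1) and Podxl from -0.21 to 0.64 (negative without db/m-veh 2). Wt1 ranged from -0.26 to 0.21 (positive without replicate 1 or 3 of db/m-veh, or replicate 3 of db/m-GABP-OE) and Clic5 from -0.39 to 0.048 (positive without db/m-veh 3). With GABP-KD, Magi2 ranged from -0.042 to 0.18 (negative without db/db-GABP-KD 2) and Clic5 from -0.031 to 0.26 (negative without db/db-veh 2). The genes called with GABP-OE, 245 (238 higher and 7 lower), were 27 (21 and 6) with median of ratios, 15 with the nuclear sum, 33 with quantile normalization, 62 with a pseudocount of 0.1, 65 with voom, 159 with a filter of FPKM 1 and 590 in the fit of 2 groups, and 31 (without db/m-GABP-OE 2) to 559 (without db/db-GABP-KD 1) with 1 library left out. The 12 called in the diabetic comparison were 22, 35 and 26 under those 3 scalings, 2 without the filter, 5 with voom and 19 in the fit of 2 groups, and the 17 called in the difference of effects were 10, 7 and 11, then 7 without the filter and 2 with voom. With 1 library left out they ran from 2 (without db/db-veh 1) to 48 (without db/db-GABP-KD 1) in the diabetic comparison, and from 1 (without db/m-veh 3) to 40 (without db/m-veh 1) in the difference of effects. With GABP-KD, 0 called became 5, 6 and 11 under the 3 scalings, and at most 4 with 1 library left out (without db/db-GABP-KD 1). These leave-out counts are as deposited. After median of ratios scaling they ran from 6 to 77 with GABP-OE and from 4 to 54 in the diabetic comparison. They ran from 0 to 9 with GABP-KD and from 0 to 46 in the difference of effects. Same-numbered libraries correlated from -0.48 to 0.38 after removal of group means. Differently numbered libraries were not set beside them, so whether the numbers pair libraries cannot be decided from these values. With the replicate block the members called stayed at 0 in each comparison and the genes called were 13, 277, 0 and 11 in the order of the report. With 3 libraries a group no exact test can go below 0.1. Ptpro and Magi2 are limited by their few fragments.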
